A study of Mus musculus with 150 samples.

Results

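The genes described here encode 10 transcription factors that set or mark epithelial identity in the lung or, for HNF4A, in liver and gut. These genes are Nkx2-1, Foxa1, Foxa2, Hnf4a, Cebpa, Etv5, Hopx, Gata6, Sox2 and Sox9. They were chosen by name, and their copy number was read from the genomic bins whose gene column lists them, which are 12 of the 5149 bins kept for analysis and of 5331 in all. From the deposited ratio at the main thresholds, Foxa2 and Hnf4a, on the same chromosome, were gained in most cells of 1 tumour (T7). By the same measure Sox9 was lost in most cells of another (T9). In T1, by that measure, no member reached the level of a gain or loss in more than a few cells. A ratio recomputed from read depth gave lower shares for Foxa2 and Hnf4a in T7, and called Sox9 gained in 63.8% of T1 cells.

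NKX2-1 directs the formation of the lung and keeps the alveolar programme on, including the surfactant genes. It works with FOXA1 and FOXA2, pioneer factors that open chromatin at endodermal genes. In mouse lung adenocarcinoma, cells without NKX2-1 are known to take up a gastric and gut programme in which HNF4A is active and the FOXA factors are again partners.

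Genomic DNA of single cells from 3 microdissected tumours of 1 mouse (animal M3, timepoint KP_30w_ND, 30 weeks after induction) was sequenced, with 50 cells from each of the tumours T1, T7 and T9. All cells share the host: a mixed C57BL/6 x Sv129 background in a series that lists Trp53flox/flox, Rosa26LSL-tdTomato and Rosa26LSL-Luciferase strains. The labels give AdSPC-Cre, in which the surfactant protein C promoter limits Cre largely to alveolar type 2 cells, or AdCMV-FlpO as the inducing virus, without saying which this mouse received. The source is labelled as AT2 cells, and since DNA holds no expression that label could not be set against markers.

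After a filter on noise, T1 kept 47 cells, T7 kept 48 and T9 kept 50. The sequence per kept cell was 20.5 to 170 Mb in T1 (median 97.7), 24.6 to 140 Mb in T7 (median 69.3) and 43.3 to 82.1 Mb in T9 (median 56.7), and the median noise between neighbouring bins was 0.19, 0.15 and 0.13 log2 units. T1 was thus the most deeply sequenced and the noisiest. Each tumour is 1 sample of 1 animal and its cells are not replicates of a condition, so no difference between tumours was tested. The intervals below are exact 95% Clopper-Pearson intervals that cover counting error over cells only.

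Each level is a log2 ratio set against the autosomal median of its own cell, so 0 stands for the most central level of that cell and not for a known number of copies. Each chromosome of each cell was divided into segments, and a gene was called gained where its segment stood at or above 0.32, the value of 2.5 copies against 2, and lost at or below -0.42, the value of 1.5 copies. A median bin spans 500 kb and a segment at least 10 Mb, so a gene is measured together with its neighbours.

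The clearest pattern joined Foxa2 and Hnf4a, which lie 15.5 Mb apart on chromosome 2. FOXA2 is needed for lung and foregut development and HNF4A is a nuclear receptor of liver and gut epithelium. Foxa2 is annotated at chr2:148042877-148046969 on the minus strand and Hnf4a at chr2:163506811-163572907 on the plus strand (GRCm38). The RefSeq sequences (GRCm38.p6) just outside their outermost annotated starts are shown because this pair was the one gained together. They cover chr2:148046970-148047219 on the minus strand, 250 bases, and chr2:163506607-163506810 on the plus strand, 204 bases, and capitals mark a match to AGATAA, the core bound by GATA factors.

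Foxa2: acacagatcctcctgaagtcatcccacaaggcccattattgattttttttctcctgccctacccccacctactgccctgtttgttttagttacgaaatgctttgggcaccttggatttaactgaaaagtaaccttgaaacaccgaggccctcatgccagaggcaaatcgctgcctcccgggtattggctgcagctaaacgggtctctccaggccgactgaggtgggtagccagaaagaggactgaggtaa
Hnf4a: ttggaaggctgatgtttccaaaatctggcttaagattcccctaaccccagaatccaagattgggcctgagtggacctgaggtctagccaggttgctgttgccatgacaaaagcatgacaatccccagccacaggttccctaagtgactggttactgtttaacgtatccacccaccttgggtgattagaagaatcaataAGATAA

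The Hnf4a window holds 1 match, which begins 6 bases before the gene, and the Foxa2 window holds none of the motifs searched. Motifs were searched on both strands of 32851 windows of 250 bases, each lying before a start in the RefSeq table, of which 13 belong to 8 of the members. AGATAA occurs in 9.99% of all windows and, among the members, in 1 window each of Foxa2 and Hnf4a. The FOXA core TGTTTAC occurs in 3.17% and, among the members, at Etv5 and Foxa1. The NKX2 core TCAAGTG occurs in 2.68% and at none of the 8. No searched motif overlaps another in the printed windows. A match is a description of letters and says nothing of binding in these cells.

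In T7, the level of the Foxa2 segment ran from -0.08 to 0.53 with a median of 0.38 (SD 0.17, n = 48 cells), a ratio of 1.30. Foxa2 was called gained in 34 of 48 cells (70.8%, interval 55.9 to 83.0%) and lost in none, which allows a share of up to 6.25% by a floor of 3 cells and 7.40% by the exact interval. In T1 its level ran from -0.57 to 0.29 with a median of 0.16 (SD 0.18, n = 47), with no cell gained and 2 lost. T9 cells lay between -0.60 and 0.31 around a median of 0.02 (SD 0.14, n = 50), with no cell gained and 1 lost. Every gained cell was thus in T7, and the cell levels of the 3 tumours overlapped.

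Within T7 the cells fell on both sides of a gap. The Foxa2 segment stood above 0.3 in 39 cells and below 0.15 in 9, and no cell lay between. The call threshold passes through the upper cluster: 12 cells were within 0.05 of it, and the cells not called gained reached 0.32. The count of 34 is therefore a count at the stated threshold, and 39 of 48 cells (81.2%) stood on the higher side of the gap. With the threshold of a gain at 0.45, 22.9% of T7 cells were gained at Foxa2 and 25% at Hnf4a.

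Hnf4a followed Foxa2 closely. Its segment in T7 had a median of 0.38 (SD 0.17) and the same range, it was gained in 34 of 48 cells, and the same 34 cells were gained at both genes. Both genes lay in a single segment in 47 of the 48 cells. In T1 the Hnf4a segment had a median of 0.15 (SD 0.19) and in T9 of 0.02 (SD 0.13), with 2 and 1 cells lost. Those 2 T1 cells and the T9 cell were the ones in which Foxa2 was lost.

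The gain covered the chromosome rather than either gene. In the 34 gained cells of T7 the Foxa2 segment had a median length of 169 Mb, against 179 Mb for the whole chromosome, and it began inside the chromosome in 12 of them and ended inside it in all 34. Over all bins of the chromosome the median level was 0.39 in T7, beside 0.16 in T1 and 0.02 in T9. The bins of the genes themselves had medians of 0.39 for Foxa2 (SD 0.21) and 0.31 for Hnf4a (SD 0.20) in T7. Against the 20 bins around it, the bin holding the middle of Foxa2 differed by 0.02 (SD 0.12). The bin holding the middle of Hnf4a differed by -0.05 (SD 0.14), and both departures were less than the spread over cells.

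**Figure D1:**
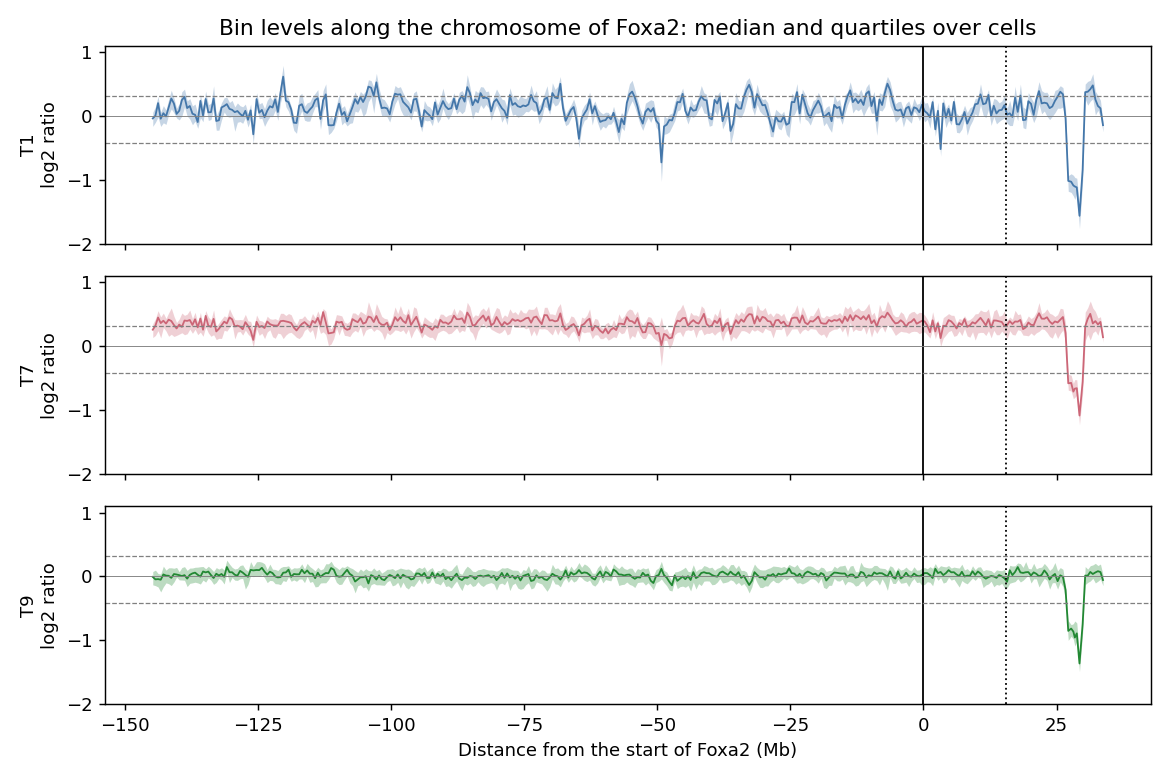
Median log2 ratio of each bin (line) and the quartiles over cells (band) along chromosome 2 in T1, T7 and T9, by distance from Foxa2 in Mb; the solid vertical line marks Foxa2, the dotted one Hnf4a, and the dashed lines the gain and loss thresholds. In T7 the line stays near 0.39 along nearly the whole chromosome, and in all 3 tumours 7 bins between 27.2 and 29.9 Mb past Foxa2 lie below -0.4, a stretch shorter than the smallest segment fitted.

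Across the 48 cells of T7, the Foxa2 level had its highest rank correlation outside chromosome 2, among 52 genes of the other lists, with Gkn2, a gastric mucosa gene on chromosome 6 (Spearman 0.91). The value for Hnf4a was 0.90 with the same gene. Gkn1 and Foxp1, also on chromosome 6, had the same T7 segment median (0.38), range and SD (0.14) as Gkn2. Both values thus belong to a stretch of chromosome 6 and not to Gkn2 alone. Foxa2 and Gkn2 were both gained in 32 cells, Foxa2 alone in 2, Gkn2 alone in 4 and neither in 10. The levels within a cell share its centring and its depth, so the correlation is a description. The Foxa2 level also had a rank correlation of 0.42 with the sequence per cell, of 0.17 with noise, and of 0.34 with the percentage of bins called on the other autosomes. The part of these in the Foxa2 and Hnf4a levels was not tested.

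The ratio recomputed from read depth, with each bin divided by its median over the cells of all tumours, gave a lower T7 level: 0.20 for Foxa2, gained in 8.33% of cells, and 0.15 for Hnf4a, gained in 14.6%. The cause of the lower level was not tested. The divisor of a bin, before centring and segmentation, cancels in a difference between any of the tumours. T7 minus T9 was 0.36 for Foxa2 from the deposited ratio and 0.35 from depth, and 0.36 and 0.38 for Hnf4a. T7 minus T1, in which the divisor cancels in the same way, kept its size for Foxa2 (0.22 and 0.18). For Hnf4a it turned, from 0.24 to -0.080.

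Sox9, on chromosome 11 at chr11:112782210-112787757, encodes the factor of the distal lung bud tip, where progenitors are held before alveolar differentiation. In T9 its segment ran from -0.94 to 0.26 with a median of -0.57 (SD 0.22, n = 50), and it was lost in 43 of 50 cells (86%, interval 73.3 to 94.2%). T7 lay between -0.48 and 0.07 around -0.02 (SD 0.11), with 1 cell lost, and T1 between -0.76 and 0.38 around -0.08 (SD 0.20), with 2 lost and 1 gained. The loss of Sox9 in most cells was seen in T9 alone among these tumours.

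The T9 cells also fell on both sides of a gap. The highest lost cell stood at -0.46 and the lowest of the other 7 at -0.23, and 1 cell was within 0.05 of the threshold. The level from depth was -0.50 in T9, with 78% of cells lost. The difference between T7 and T9 was 0.54 from the deposited ratio and 0.55 from depth, while T9 minus T1 was -0.49 and -0.91. With the threshold of a loss at -0.7, 10% of T9 cells were lost.

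The lost stretch was the far end of the chromosome. Its median length in the 43 lost cells was 22.9 Mb (12.5 to 23.4), its start had a median 13.8 Mb before Sox9, and in no lost cell did it cover the whole chromosome or end inside it. The median over all bins of chromosome 11 in T9 was -0.02. Foxj1, which drives formation of motile cilia in airway cells, lay in the same segment as Sox9 in every T9 cell by its equal level and was lost in the same 43 cells. Etv4, a relative of Etv5, was lost in 42 cells, 41 of them with Sox9. On other chromosomes the closest of 49 genes was Pdpn, an alveolar type 1 surface protein on chromosome 4, with a Spearman correlation of only 0.42 over the 50 cells.

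**Figure D2:**
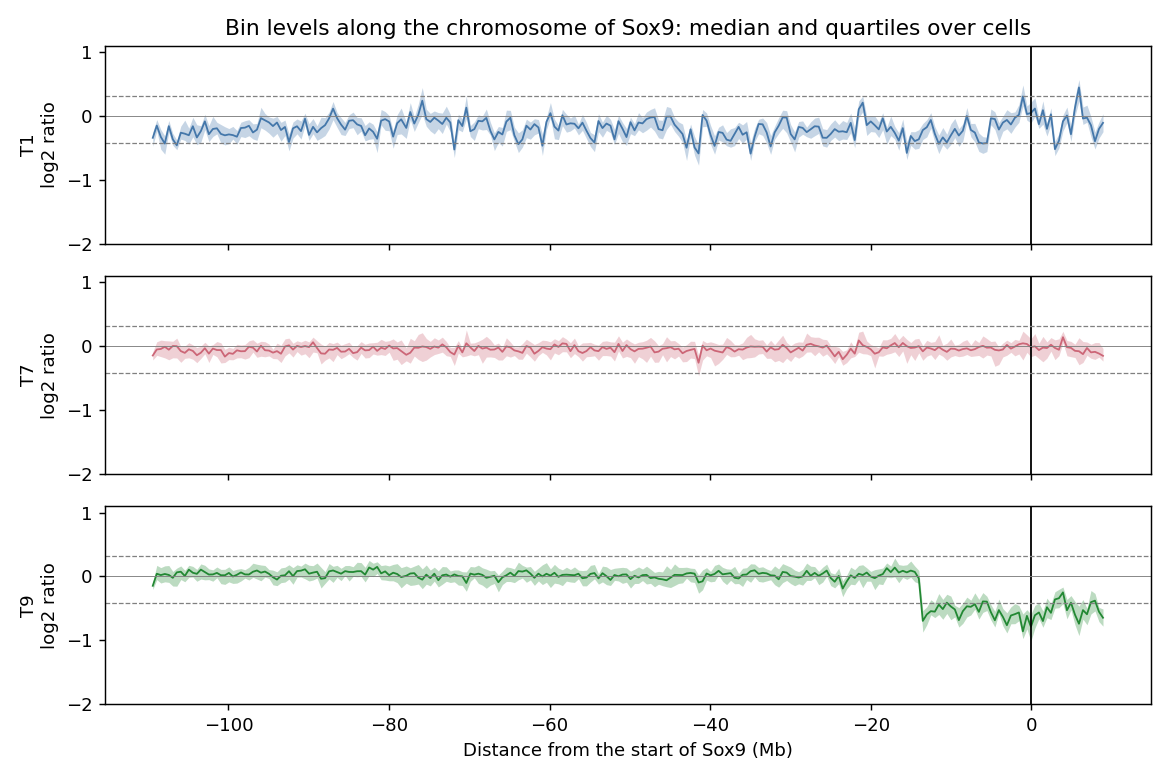
Median log2 ratio of each bin (line) and quartiles over cells (band) along chromosome 11 in T1, T7 and T9, by distance from Sox9 in Mb; the vertical line marks Sox9 and the dashed lines the thresholds. In T9 the level steps down 13.8 Mb before Sox9 and stays low to the end of the chromosome, while T7 stays near 0 throughout.

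The bin holding Sox9 was lower than its surroundings in T9 and more variable than most bins. Its median was -0.79 in T9 (SD 0.40), which is 0.20 below its 20 neighbours (SD 0.30) and lower than them in 43 of 50 cells, and 0.999% of autosomal bins stood lower still. In T7 its median was -0.01 (SD 0.41), and the spread of this departure over cells stood at percentile 99.8 of autosomal bins in both tumours. The bin fell to -1 or below in 15 T9 cells and in 1 T7 cell. It held a median of 5.63 kb of sequence in T9, against 11.4 kb in T7 and 20.7 kb in T1, so a single T9 bin value rests on little sequence. The departure is within the spread over cells.

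Nkx2-1 and Foxa1 lie 1.01 Mb apart on chromosome 12, at chr12:56531935-56536908 and chr12:57540628-57548029, and shared a segment in all 145 kept cells. In T7 that segment stood between -0.08 and 0.11 with a median of -0.02 (SD 0.04), with no gain and no loss in 48 cells. In T9 it stood between -0.76 and 0.22 around 0.02 (SD 0.14), with 1 cell lost. In T1 it ran from -0.04 to 0.49 around 0.20 (SD 0.08), with 4 of 47 cells gained (8.51%, interval 2.37 to 20.4%). Loss of the alveolar factor gene itself was therefore a call in 1 of the 145 cells.

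The paralogues Foxa1 and Foxa2 went separate ways in T7. The Foxa1 level was below that of Foxa2 in 43 of the 48 cells, by a median of 0.41 (SD 0.18). In T9 the median difference was 0.00 (SD 0.17), and in T1 Foxa1 was higher by 0.04 (SD 0.20), both less than the spread over cells.

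Cebpa and Etv5 act in alveolar type 2 cells, where C/EBPalpha promotes their maturation and ETV5 helps keep their identity. Cebpa is at chr7:35119293-35121928 and Etv5 at chr16:22381313-22439570. The Cebpa segment had a median of -0.18 in T1 (-0.78 to 0.20, SD 0.17), with 2 cells lost. It was -0.04 in T7 (SD 0.12), with 2 lost, and 0.03 in T9 (SD 0.16), with 3 gained. Etv5 had a median of -0.23 in T1 (-0.40 to 0.22, SD 0.12), where 46 of 47 cells stood below 0 and none passed the threshold of a loss. With mode centring, which sets each cell on its most frequent level, 14.9% of T1 cells were called lost at Etv5, and with a loss threshold of -0.3 it was 19.1%. It was -0.03 in T7 (SD 0.06) with no call and 0.01 in T9 (SD 0.12) with 1 cell gained, at 0.74.

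Hopx, at chr5:77086986-77115123, encodes a small homeodomain protein that marks alveolar type 1 cells. Its level was 0.17 in T1 (SD 0.12) with 4 cells gained, -0.04 in T7 (SD 0.08) with 1 lost, and 0.02 in T9 (SD 0.13) with 1 lost. Gata6, on chromosome 18, encodes an endodermal factor that acts in lung epithelium with NKX2-1. It stood at 0.19 in T1 (SD 0.13) with 2 cells gained, at -0.03 in T7 (SD 0.08) with no call, and at 0.01 in T9 (SD 0.16) with 4 gained. Sox2, at chr3:34649995-34652461, is the factor of proximal airway progenitors. It had 1 cell gained in T1, at a median of 0.17 (SD 0.11), and no call in T7 (-0.03, SD 0.04) or T9 (0.01, SD 0.11). For these 3 genes the cells of the 3 tumours overlapped, and the calls were too few to separate the tumours. Their medians were nonetheless higher in T1 by either ratio. T7 minus T1 was -0.21 for Hopx, -0.23 for Gata6 and -0.20 for Sox2, and from depth -0.23, -0.20 and -0.31. T9 minus T1 was -0.15, -0.18 and -0.16, and from depth -0.17, -0.13 and -0.28.

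**Figure D3:**
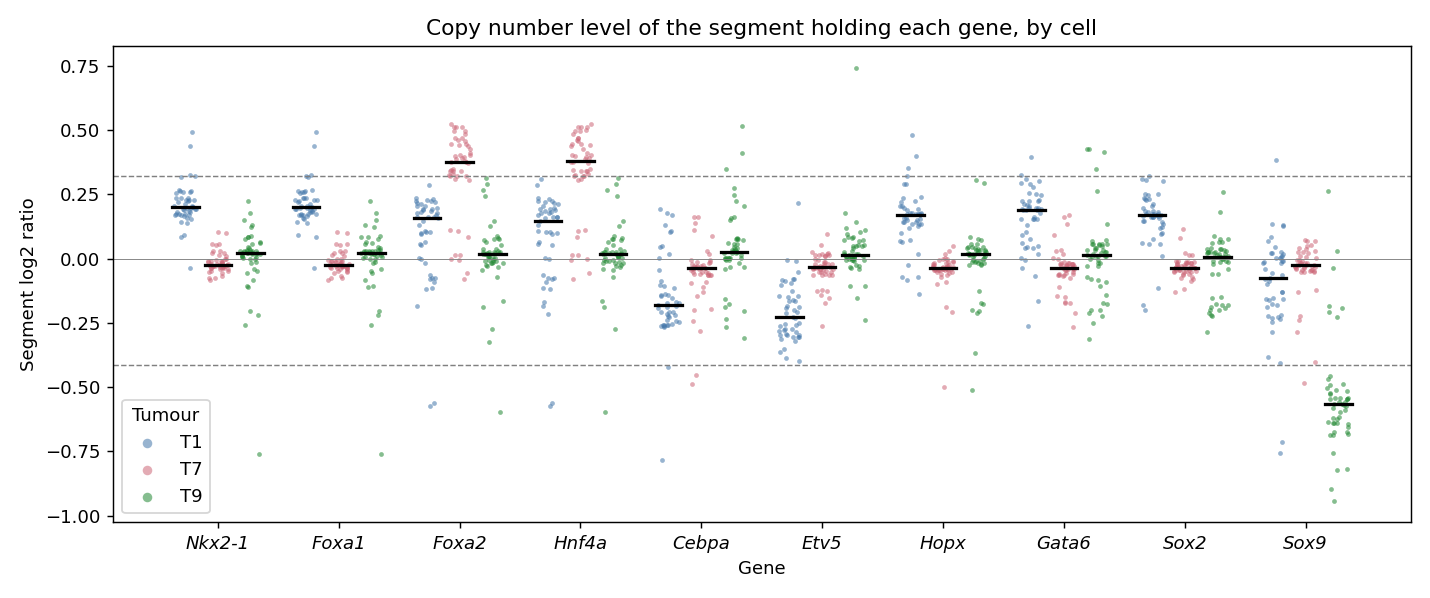
Segment log2 ratio at each of the 10 genes in every kept cell (points) of T1 (47 cells), T7 (48) and T9 (50), with the median as a black bar and the gain (0.32) and loss (-0.42) thresholds as dashed lines. Foxa2 and Hnf4a in T7 lie around 0.38 and Sox9 in T9 around -0.57, while the T1 medians lie between -0.23 and 0.20.

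In T1 the medians of all 10 members lay between the thresholds, as did those of most members in T7 and T9. Most T1 medians stood away from 0, while those between the thresholds in T7 and T9 lay within 0.1 of it. The levels of 7 members were above 0, from 0.15 for Hnf4a to 0.20 for Nkx2-1 and Foxa1, and those of Sox9, Cebpa and Etv5 were below. From the highest down, neighbouring members differed by less than the SD of each, except for the step of 0.22 from Hnf4a to Sox9. Cell by cell, Sox9 minus Hnf4a had a median of -0.22 (SD 0.31), within the spread over cells, and Sox9 was lower in 37 of 47. Within cells, Nkx2-1 exceeded Etv5 by a median of 0.42 (SD 0.16), in 46 of 47 cells, and Cebpa by 0.41 (SD 0.20), also in 46. It exceeded Sox9 by 0.26 (SD 0.22), in 45 cells. From depth, the T1 medians of Nkx2-1, Cebpa and Etv5 were -0.00, -0.00 and -0.04, close to each other.

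Such intermediate levels were general in T1. Over its autosomal bins, 7.91% had a median within 0.1 of 0, against 86.4% in T7 and 79.0% in T9, and 45.2% lay between 0.1 and the gain threshold. The direction of some T1 members was not stable to the source of the ratio. From depth, Nkx2-1 and Foxa1 stood at -0.00 and -0.02 and Sox9 at 0.42. The others kept their sign from depth. Foxa2 (0.02), Gata6 (0.12), Hopx (0.17), Hnf4a (0.23) and Sox2 (0.26) stood above 0, and Cebpa (-0.00) and Etv5 (-0.04) below. Mode centring moved T1 cells by a median of -0.09. It left 7 members above 0 and 3 below, but the level of Nkx2-1 and Foxa1 became 0.11 and those of Foxa2 and Hnf4a became 0.03. In T9, where 9 members were above 0, the same centring put all 10 below, so the sign of values near 0 carries no direction there.

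**Figure D4:**
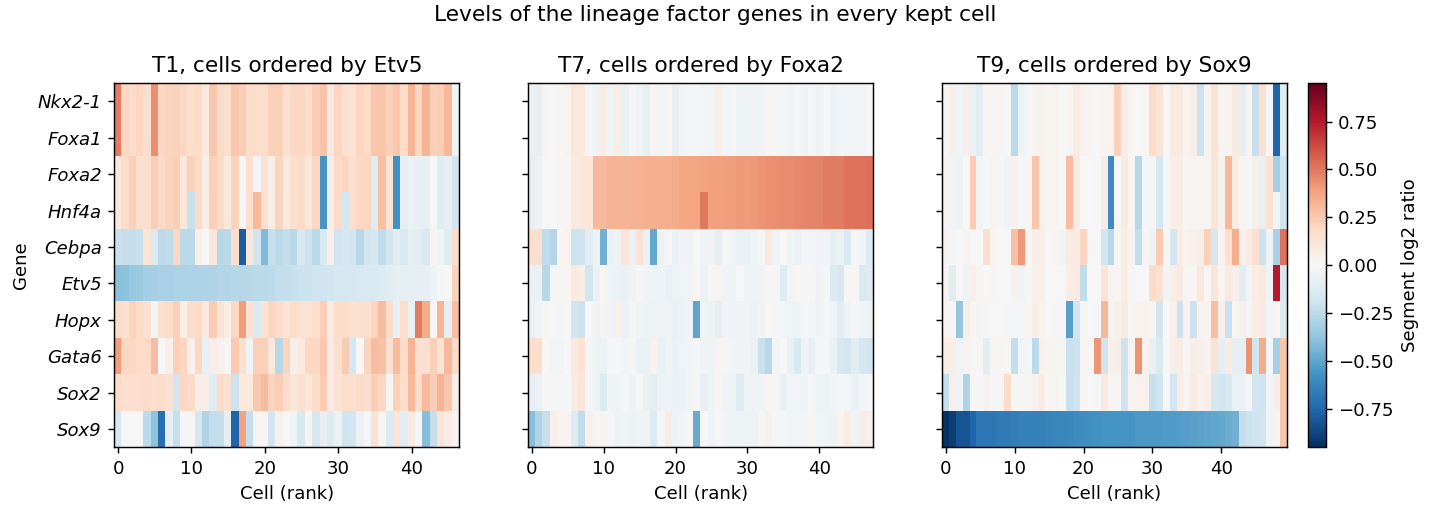
Segment log2 ratio of the 10 genes (rows, colour from blue for low to red for high) in each kept cell (columns) of T1, T7 and T9; cells are ordered by Etv5 in T1, by Foxa2 in T7 and by Sox9 in T9. The Foxa2 and Hnf4a rows move as a block in T7 and Sox9 stands alone in T9, with 43 cells at or below -0.42.

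Counted over genes, 2 of 10 members were gained in at least 20% of T7 cells, where 12.7% of all kept bins were, and none was lost, against 2.35% of bins. In T9, 1 member was lost and none gained, against 6.25% and 6.6% of bins. In T1 no member was gained or lost, while 10.9% and 18.8% of bins were. Since Foxa2 and Hnf4a share a segment, the T7 count stands for 1 stretch of chromosome 2, and the T7 and T9 counts are near the background. Over the members, the median level in T1 was 0.16, beside 0.01 over its autosomal bins. T7 had -0.03 on both, and T9 had 0.02 beside 0.01.

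Counted over cells at these thresholds, at least 1 member was called in 47 of 50 T9 cells (94%, interval 83.5 to 98.7%). The share in T7 was 35 of 48 (72.9%, interval 58.2 to 84.7%), and in T1 it was 12 of 47 (25.5%, interval 13.9 to 40.3%). The order of the tumours turned with the settings: with thresholds of 0.45 and -0.7, T7 had 25% and T9 14%, and from depth T1 had 76.6% and T7 18.8%. In T7, 32 cells had the gain of Foxa2 and Hnf4a and nothing else among the members, and 13 had no call. In T9, 37 cells had the loss of Sox9 alone and 3 had no call. In T1, 35 cells had no call, and no combination of called members was found in more than 2 of the others.

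The bins holding the other genes mostly tracked their neighbours. In T7 and T9 the median departure of a bin from its 20 neighbours was at most 0.103 in size for every member except Sox9 in T9. T1 bins departed more: over all autosomal bins the median size was 0.09, against 0.03 in T7 and T9. The Cebpa bin stood 0.30 above its neighbours in T1 (SD 0.20), in 43 of 47 cells, and its own median was 0.16 while its segment was at -0.18. The Gata6 bin stood 0.26 below its neighbours (SD 0.15), in 44 of 47 cells. The bin holding the middle of Hopx stood 0.22 below (SD 0.18), in 45, and the Foxa1 bin 0.19 above (SD 0.16), in 40. These departures sat at percentiles 97.7, 4.81, 7.43 and 91.2 of autosomal bins, so other T1 bins departed as far.

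**Figure D5:**
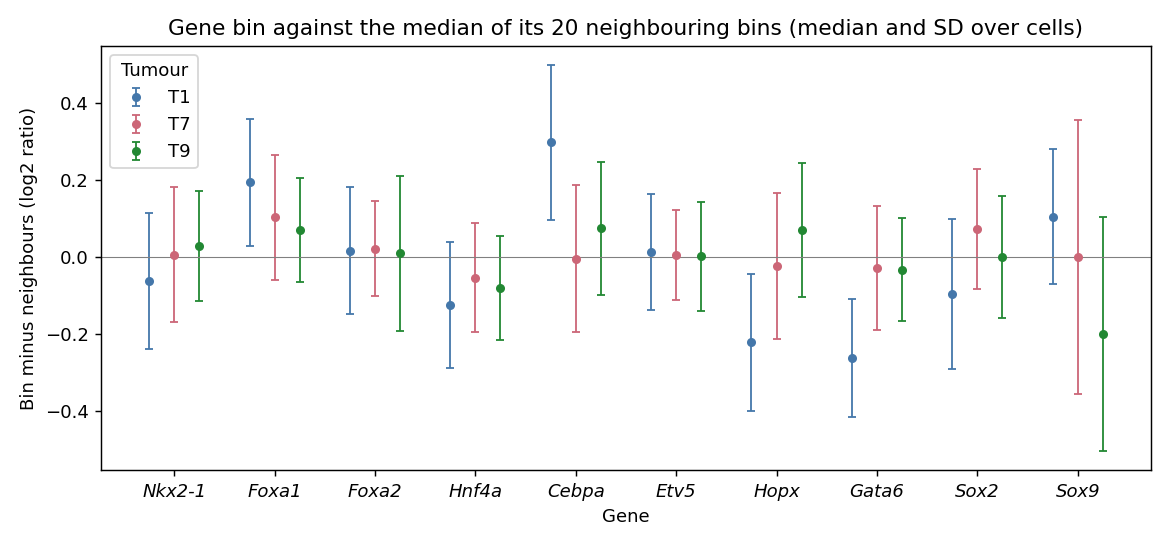
Difference between the bin holding the middle of each gene and the median of the 20 bins around it (log2 ratio). Points are medians and bars the SD over cells, for T1, T7 and T9. Cebpa in T1 is the highest at 0.30 and Gata6 in T1 the lowest at -0.26, and Sox9 has the widest bars in T7 and T9.

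The other lists place the members in the wider programme. Of 24 further lung transcription factor genes, 5 were gained in at least 20% of T7 cells and none lost. Elf5 and Ehf, epithelial ETS factors on chromosome 2, were gained in 72.9% of T7 cells, and 34 of these 35 cells were also gained at Foxa2. Foxm1, a cell cycle factor, and Foxp1, a repressor in lung epithelium, lie on chromosome 6 and were gained in 75% of T7 cells. They were also gained in 82% and 84% of T9 cells and in 74.5% and 78.7% of T1 cells. In T9 that made 2 gained of 24, and 2 were lost (Foxj1 and Etv4). In T1, 4 were gained (Foxp1, Foxm1, Foxf1 and Foxp2) and 4 lost, with Klf4 and Nfib on chromosome 4 lost in 95.7% of cells and Irx1 and Irx2 in 23.4%.

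Of 16 genes of the gastric and gut programme, Gkn1 and Gkn2 on chromosome 6 were gained in 75% of T7 cells, 84% of T9 cells and 78.7% of T1 cells. T1 also had Foxa3, a FOXA paralogue of liver and gut, lost in 21.3% of cells, and no other gene of the list was called in T7 or T9. Among 14 alveolar and airway genes, Sftpb, which encodes surfactant protein B, was gained in 72.9%, 78% and 76.6% of the cells of T7, T9 and T1. Cav1 was gained in 70.8% of T7 and 27.7% of T1 cells. Lyz2 was lost in 22.9% of T7 and 27.7% of T1 cells, and Pdpn in 91.5% of T1 cells. Foxp1, Foxm1, Gkn1, Gkn2 and Sftpb passed the 20% share of gained cells in all 3 tumours, while Cav1 and Foxp2, on the same chromosome, did so in T7 and T1 and were gained in 4% of T9 cells. None of the lineage factors passed the 20% share in more than 1 tumour.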

How the data were processed

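The authors' deposited tables hold, for each bin and cell, the coverage signal (mean reads over each base) and a log2 ratio. Per the submitters' processing notes, the alignment used BWA 0.7.17 and the GRCm38 build. Steps that made the log2 ratio were not given in the sources used here. Deposited weights were left aside. Bins with depth in at least 80% of cells were kept, and cells with noise above 0.267 (3 scaled median absolute deviations over the median) were left out. Each cell was centred on its autosomal median and segmented by least squares. The break penalty was 3 times the log of the bin number, and a segment held at least 5 bins and 10 Mb. The segmentation was tried on steps planted in the residuals it had left in real cells. Those residuals had already lost the structure it finds, so that trial says little of false calls in the cells themselves. A gene takes the segment at its middle. Its bin value is the mean over bins listing it, while its departure from neighbours uses the bin holding its middle. Scripts ran in Python 3.11.15 with numpy 2.4.6, pandas 2.3.3, scipy 1.17.1 and numba 0.67.0.

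All members are named, with up to 4 genes per other list and tumour called in at least 20% of cells. For each member so called, the most correlated gene on another chromosome is named too, the last by symbol among ties. Elf5, Etv4 and Foxj1 were also compared with members cell by cell after their values were seen. The members and lists were chosen with earlier results of these data known. RefSeq GRCm38.p6 gave gene positions and sequences; Sox9 and Gata6 have no promoter entry. Some loci are not reported here. Other thresholds, centrings, filters, penalties, single bins, a window of 11 bins and a ratio from depth were tried as alternatives.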

Additional observations from a re-analysis of the deposited data

How the results depend on the processing

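With thresholds of 0.2 and -0.3, T1 had 7 members gained and 76.6% of cells with a call. With 0.45 and -0.7, 0 members were lost in T9, and the cells with a call were 10.6% in T1, 25% in T7 and 14% in T9. From depth, 3 members were gained in T1 (Sox2, Sox9 and Hnf4a) with 76.6% of cells called, and 0 in T7, with 18.8%. The single bin gave 2 gained members in T1 and 85.1% of its cells, and the window of 11 bins 2 and 44.7%. Mode centring, the doubled break penalty and both cell filters left each count of members and share of cells with a call within the limits set for a change. The Hnf4a level, T7 minus T1, was 0.24 and turned to -0.080 from depth, a comparison chosen after seeing the data; the cause was not tested. For Sox9, T9 minus T1 was -0.49 and -0.91. Changes shorter than 10 Mb and copies of a single gene were not resolved at this depth. No paired analysis was possible because each tumour is 1 sample with cells numbered once.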

Other observations

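In T1 the segment of Irx1 and Irx2, homeobox genes of the lung on chromosome 13, had a median of 0.09 with an SD of 0.36 over cells, while 23.4% of cells were called lost. On chromosome 2, 7 bins between 27.2 and 29.9 Mb past Foxa2 had medians below -0.4 in each tumour, the lowest at -1.56 in T1, -1.08 in T7 and -1.36 in T9.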
